A study of Homo sapiens with 20 samples.

Results

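A549 is an established human non-small cell lung cancer line, and extracellular ATP (eATP) and TGF-β were compared in it as inducers of the epithelial-mesenchymal transition (EMT). The question here was whether the change in a gene's mRNA between 2 and 6 h differed between the inducers, and in particular which genes one inducer held up or down while the response to the other faded. The value for each gene was the log2(FC) from 2 to 6 h with TGF-β minus the log2(FC) from 2 to 6 h with eATP, called the interaction below. A positive interaction means that the course from 2 to 6 h was more upward with TGF-β, and a negative one that it was more upward with eATP. It was estimated from 16 of the 20 RNAseq libraries, which are 4 libraries each of cells given 0.5 mM ATP for 2 h, 10 ng/mL TGF-β for 2 h, 0.5 mM ATP for 6 h and 10 ng/mL TGF-β for 6 h. The 4 libraries of untreated cells, for which the labels give no collection time, were used only to say whether a gene was above or below the untreated level. All cells were of the same line, grown in DMEM with fetal bovine serum, and the labels do not say whether the 4 replicates of a group were separate cultures, so the p-values cover the differences among the sequenced libraries alone, and these could be technical. Of the 58825 genes in the table, 19523 had at least 0.1 FPKM (fragments per transcript length and library size) in 4 or more of the 16 treated libraries and were tested. A gene was called at an adjusted p under 0.05 by edgeR's quasi-likelihood test.

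TGF-β binds a pair of receptor serine/threonine kinases, which phosphorylate SMAD2 and SMAD3. These enter the nucleus with SMAD4 and stay active as long as the receptors signal, and their targets include matrix genes and the pathway's own inhibitors. eATP acts on P2X channels and G protein-coupled P2Y receptors, which raise calcium and activate MAP kinases, and it is broken down at the cell surface to adenosine by ectonucleotidases such as CD39 and CD73. Immediate early genes are the transcription factor genes, FOS and EGR1 among them, that such signals switch on without new protein synthesis and that usually shut off again quickly.

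The libraries held 56187614 to 75050437 counts, and 2.6 to 4.21% of the counts were from mitochondrial genes. TGF-β 2 h replicate 1 stood apart: its genes deviated from the mean of their group with an SD of 0.793 on the log2 scale, against 0.389 to 0.518 in the other 15 treated libraries, and the deviation ran with log2 transcript length (Pearson's r = −0.373 over 13853 genes, which do not vary independently of each other). The epithelial keratins KRT8 and KRT18 were at 329.2 FPKM or more in every treated library. Other epithelial markers were lower, with KRT19 at 58.12 to 136.1 FPKM, EPCAM at 4.481 to 6.991 and CDH1 at 2.141 to 15.25. The surfactant genes SFTPC, SFTPA1 and SFTPB and the alveolar factor NKX2-1 stayed under 0.07 FPKM throughout. Of 13 markers of leukocytes, endothelium, fibroblasts and red cells, CD3E had no count and only CD68, CDH5 and LUM passed the filter. The markers summed to 2.02 to 3.57 FPKM with TGF-β at 6 h and to 3.03 to 6.98 FPKM in the other groups, most of it CD68, and none of the 3 tested was called by edgeR or limma, with 1 negative at an unadjusted p under 0.05 and 1 by DESeq2.

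The inducers' time courses differed for 1037 genes, 5.31% of those tested. The interaction was positive for 543 (2.78%) and negative for 494 (2.53%), and it reached at least 1 on the log2 scale in size for 242 and 218 of them. The median over all 19523 genes was −0.01. A library left out in turn gave 813 to 1738 calls, the highest without TGF-β 2 h replicate 1, where 1022 of the 1037 were shared. The cells given eATP had 1070 genes (5.48%) higher and 1206 (6.18%) lower at 6 h than at 2 h, and the cells given TGF-β had 972 (4.98%) higher and 1211 (6.2%) lower. Among the 543 genes with a positive interaction, 192 fell with eATP with no call for TGF-β, 213 rose with TGF-β with no call for eATP, and 78 did both. Among the 494 with a negative interaction, 182 rose with eATP alone, 162 fell with TGF-β alone and 77 did both. In 24 and 26 of the called genes both inducers' levels fell, but by unequal amounts, in 11 and 18 both rose, and in 25 and 29 neither change passed the test on its own.

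**Figure D1:**
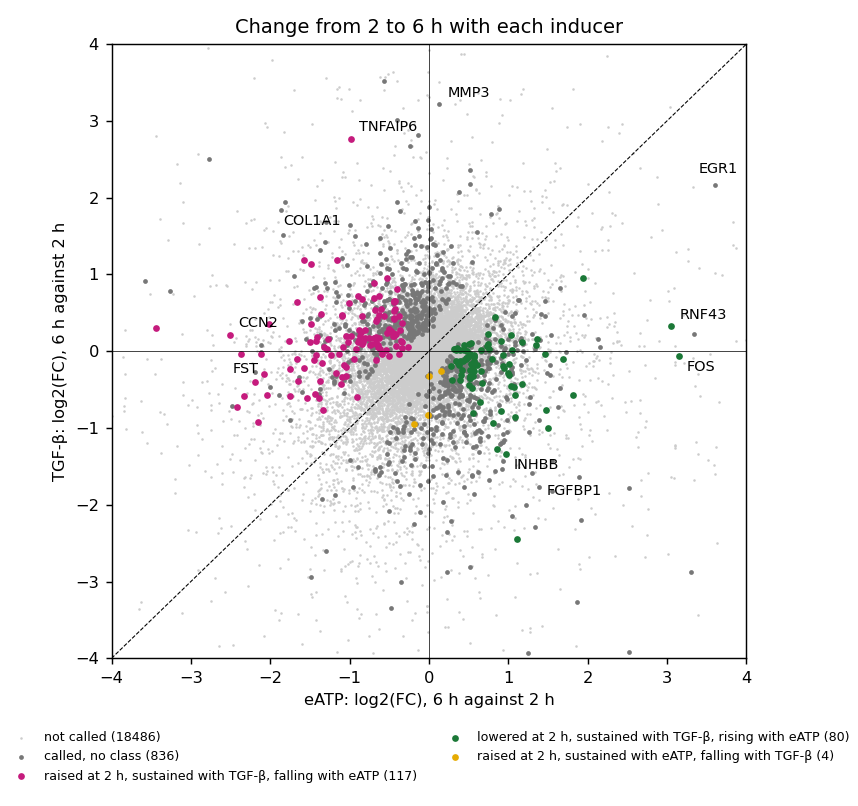
Each point is 1 of 19523 genes, placed by its log2(FC) from 2 to 6 h with eATP (x axis) and with TGF-β (y axis), with the dashed line marking equal changes. The interaction is the vertical distance from that line, and 297 genes lie beyond the axes of ±4. Genes raised by both inducers at 2 h and held by TGF-β (117 genes) lie at the left near the horizontal axis, and genes lowered by both and held down by TGF-β (80 genes) lie at the right.

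Set against the untreated cells, fewer genes were called with eATP at 6 h than at 2 h, and more with TGF-β. eATP had 979 genes (5.01%) higher and 762 (3.9%) lower than in the controls at 2 h, and 378 (1.94%) higher and 252 (1.29%) lower at 6 h. TGF-β had 1469 (7.52%) higher and 1142 (5.85%) lower at 2 h, and 1637 (8.38%) higher and 1655 (8.48%) lower at 6 h. All these comparisons share the same 4 controls. At 2 h the inducers had 474 genes in common that were higher than in the controls. At 6 h, 91 of these were still called higher with eATP and 280 with TGF-β, and 77 were higher in all 4 comparisons. Of the 363 genes lower with both inducers at 2 h, 17 were still called lower with eATP at 6 h and 196 with TGF-β, and 15 were lower in all 4.

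Genes sustained by one inducer and transient with the other were taken from the called interactions by fixed conditions. A gene was raised by both at 2 h and sustained by TGF-β if both inducers were called higher than controls at 2 h, eATP was called lower at 6 than at 2 h, and TGF-β was called higher than controls at 6 h. This held for 117 genes, 21.5% of the positive interactions. The mirror case, raised by both at 2 h, sustained by eATP and transient with TGF-β, held for 4 genes. Lowered by both at 2 h, held down by TGF-β and recovering with eATP were 80 genes, 16.2% of the negative interactions. No gene was lowered by both, held down by eATP and recovering with TGF-β by edgeR or limma, while 2 were by DESeq2 and 6 at unadjusted p under 0.05. These groups are defined from the same calls that are counted here, so their courses are descriptions. Without TGF-β 2 h replicate 1 the 4 groups held 159, 10, 167 and 2 genes, and 115 of the 117 and 77 of the 80 were among them.

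**Figure D2:**
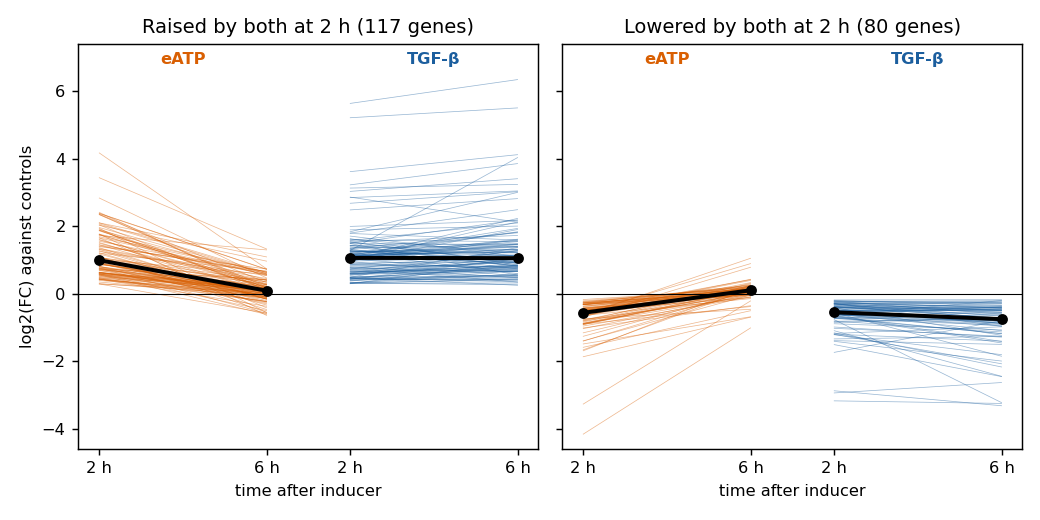
Lines show the log2(FC) against controls of each gene at 2 and 6 h with eATP (orange) and with TGF-β (blue), and black lines join the medians. In the 117 genes at the left the median went from 0.99 to 0.09 with eATP and stayed at 1.06 and 1.05 with TGF-β. In the 80 genes at the right it went from −0.57 to 0.10 with eATP and from −0.55 to −0.76 with TGF-β.

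At 2 h the 117 raised genes had a median log2(FC) against controls of 0.99 with eATP and 1.06 with TGF-β. At 6 h the medians were 0.09 and 1.05. The median gene kept 8.53% of its 2 h log2(FC) with eATP, and 112.5% with TGF-β. With eATP at 6 h, 90 of the 117 were no longer called against controls, 20 were still called higher and 7 were called lower. With TGF-β, 32 of the 117 rose further from 2 to 6 h, 12 fell and 73 had no call. In 115 of the 117 all 4 libraries of eATP at 6 h were below all 4 at 2 h.

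The secreted matrix protein gene CCN2, which encodes connective tissue growth factor and is a target of both SMAD and the YAP-TEAD factors, was the clearest of them. Its FPKM in the controls was 16, 15.7, 15.7 and 17.3. With eATP it was 58.1, 61, 63.4 and 61.3 at 2 h and 10.1, 11.6, 11.2 and 10.1 at 6 h, below every control library. The TGF-β libraries had 119, 85.8, 129 and 123 at 2 h and 130, 134, 122 and 126 at 6 h. All TGF-β libraries were above all others at either time. The log2(FC) from 2 to 6 h was −2.50 ± 0.11 (SE) with eATP and 0.21 ± 0.11 with TGF-β, which gives an interaction of 2.71 ± 0.16 (adjusted p = 2.1e-07).

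FST and STC1 had a larger first response to eATP than to TGF-β. FST encodes follistatin, a secreted protein that binds and blocks activins. Its FPKM was 12.1, 11.2, 10.5 and 11.2 with eATP at 2 h and 2.66, 2.51, 1.11 and 2.39 at 6 h. With TGF-β it was 5.42, 4.91, 4.03 and 4.56 at 2 h and 5.47, 3.19, 4.59 and 4.57 at 6 h, and in the controls 0.974 to 2.3. The eATP libraries at 6 h overlapped the controls, and the TGF-β libraries at either time did not. The interaction was 2.34 ± 0.31 (SE, adjusted p = 3.0e-04). STC1, which encodes the secreted glycoprotein stanniocalcin, had a mean of 51.1 FPKM with eATP at 2 h, 11.8 at 6 h, and 13.4 and 12.6 with TGF-β, against 4.81 in the controls. It thus remained higher than in the controls with both inducers at 6 h (log2(FC) 1.32 and 1.45).

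Of the 21 cytokine and chemokine genes tested, 9 had a positive and 1 a negative interaction, against 2.78% and 2.53% of all genes, and 6 of the 9 were in the group of 117 (CCL2, CXCL8, IL11, IL1B, IL6 and LIF). IL6, a cytokine that signals through STAT3, was at 3.13, 2.63, 3.46 and 2.75 FPKM with eATP at 2 h and at 1.13, 1.07, 0.908 and 1.15 at 6 h. In cells given TGF-β it was at 1.12, 0.968, 1.55 and 1.94 FPKM at 2 h and at 2.9, 3.07, 3.54 and 2.36 at 6 h, with 0.555 to 0.884 in the controls. The order of the inducers was thus reversed between the times, with no overlap of their libraries at either (interaction 2.62 ± 0.28, SE, adjusted p = 4.7e-05). CCL2, a chemokine that draws monocytes, went from a mean of 350 to 140 FPKM with eATP and was at 262 and 263 with TGF-β, against 118 in the controls. IL1B had a mean of 1.36 and 0.426 FPKM with eATP and 0.512 and 0.771 with TGF-β. Of the 16 NF-κB feedback genes and targets, 4 were positive and 1 negative (7 and 1 without TGF-β 2 h replicate 1, 11 and 1 at unadjusted p under 0.05). NFKB1, the gene of the p105 and p50 subunit, had means of 24.7 and 9.1 FPKM with eATP and 19.3 and 17.2 with TGF-β, against 8.81 in the controls.

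TNFAIP6 and YPEL2 had the largest interactions of the 117. TNFAIP6 encodes TSG-6, a secreted protein that modifies hyaluronan. The FPKM was 1.72, 1.76, 1.59 and 2.3 with eATP at 2 h, 0.905, 1.32, 0.787 and 0.73 with eATP at 6 h, and 0.833 to 1.08 in the controls. With TGF-β it was 1.51, 2.49, 2.13 and 2.94 at 2 h and 15.8, 13.8, 14.9 and 14.9 at 6 h. The 2 h levels of the inducers overlapped, and the separation lay in the later rise with TGF-β, whose log2(FC) from 2 to 6 h was 2.77 ± 0.21 (SE), with an interaction of 3.75 ± 0.29 (adjusted p = 2.7e-06). For YPEL2 it was 3.75 ± 0.97 (SE, adjusted p = 0.035), but its libraries ranged from 0.0773 to 0.761 FPKM with eATP at 2 h and the call was lost without any of 12 single libraries (adjusted p 0.0082 to 0.076 over the 16).

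**Figure D3:**
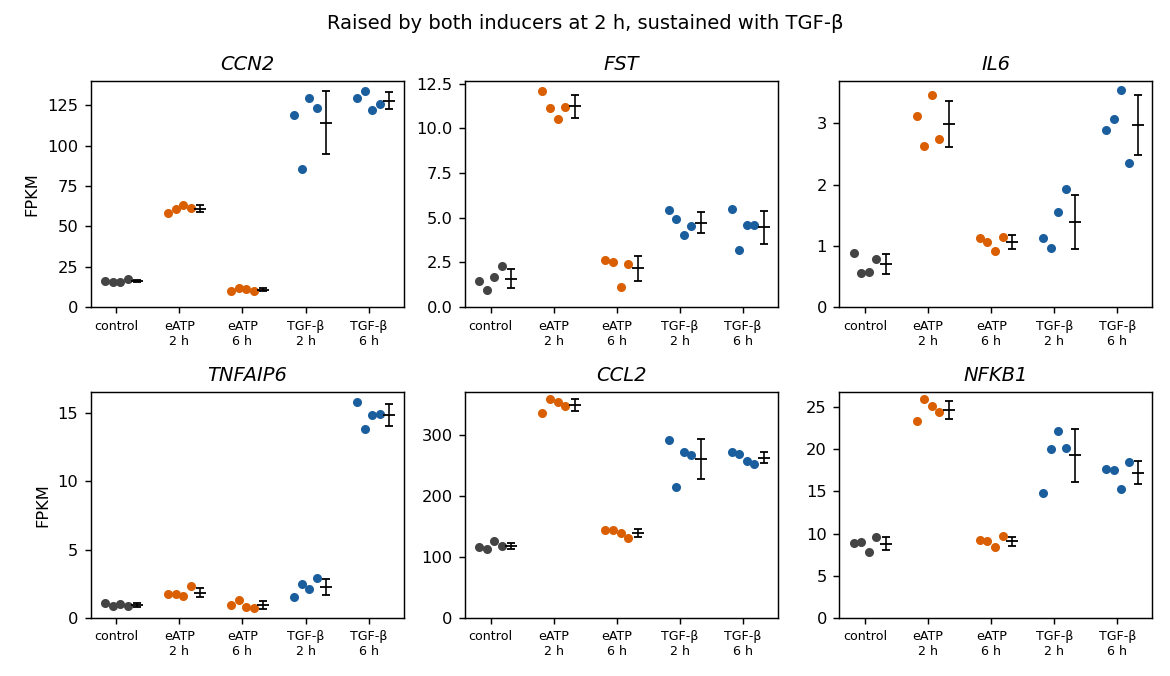
FPKM of 6 genes raised by both inducers at 2 h, with 1 point for each library, 4 libraries a group, and the mean ± SD beside them. With eATP (orange) each is lower at 6 h than at 2 h, with no overlap of the libraries, while with TGF-β (blue) IL6 and TNFAIP6 are higher at 6 h and the libraries of the other 4 overlap between the times.

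The BMP ligand genes BMP2 and BMP6 belonged to the same group but differed in how far they returned. BMP2 had means of 4.62 and 2.23 FPKM with eATP and 4.17 and 4.62 with TGF-β, against 1.46 in the controls. BMP6 was at 15.2, 14.7, 14.9 and 15.3 FPKM with eATP at 2 h and still at 11.6, 11.7, 11.2 and 10.2 at 6 h. With TGF-β it rose from 8.4, 11.9, 10.5 and 10.8 to 16.3, 15.7, 13.3 and 18 FPKM, against 4.35 to 5.11 in the controls. Both inducers thus kept it above every control library. The matrix glycoprotein gene THBS1, whose product can activate latent TGF-β, had means of 19.5 and 12 FPKM with eATP and 26 and 40.4 with TGF-β, against 11.9 in the controls. PDGFB and ANGPTL4, which encode a growth factor and a secreted lipase inhibitor, met the conditions with a much smaller first response to eATP than to TGF-β. PDGFB had means of 2.43 FPKM with eATP and 21.6 with TGF-β at 2 h, against 1.51 to 1.9 in the controls. ANGPTL4 had means of 3.67 and 72.1, against 1.04 to 1.69.

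Of the 16 purinergic receptor, release channel and ectonucleotidase genes tested, 2 had a positive and 2 a negative interaction. Over all genes the shares were 2.78% and 2.53%. The negative ones were ADORA2B and P2RX5, and the call of P2RX5 (adjusted p = 0.029) was lost with the replicate block and without any of 7 single libraries. Both positive ones were among the 117. NT5E, the gene of CD73, which makes adenosine from AMP, was at means of 27 and 20.8 FPKM with eATP and 23.3 and 30.8 with TGF-β, against 18.3 in the controls. PANX1, the gene of a membrane channel that releases ATP, was at 11.4 and 8.97 with eATP and 8.45 and 10.5 with TGF-β, against 6.88. The adenosine receptor gene ADORA2B went the other way, with a mean of 6.24 and 7.72 FPKM with eATP and 4.46 and 1.89 with TGF-β (interaction −1.49 ± 0.17, SE, adjusted p = 6.3e-05).

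Promoter windows of 250 bases before to 50 after the RefSeq start site (GRCh38.p14) were found by symbol for 88 of the 117 genes and for 11106 of all genes tested. The windows of CCN2, IL6 and TNFAIP6 are shown because they carry the motif types that were counted, each in capitals. In CCN2 the capitals are GGAATG, the core bound by TEAD factors. In IL6 they are TGACG, the core of the cAMP response element (CRE), on either strand, and TGTCTG, which holds the reverse complement of the SMAD element CAGACA. In TNFAIP6 they are the AP-1 site TGAGTCA, bound by FOS and JUN proteins, and CAGACA.
CCN2, chr6:131951323-131951622, minus strand: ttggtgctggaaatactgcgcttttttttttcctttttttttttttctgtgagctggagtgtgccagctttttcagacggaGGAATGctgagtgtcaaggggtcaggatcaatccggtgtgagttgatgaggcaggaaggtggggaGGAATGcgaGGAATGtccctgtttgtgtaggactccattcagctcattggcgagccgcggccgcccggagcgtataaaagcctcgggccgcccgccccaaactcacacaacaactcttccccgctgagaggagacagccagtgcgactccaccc
IL6, chr7:22726950-22727249, plus strand: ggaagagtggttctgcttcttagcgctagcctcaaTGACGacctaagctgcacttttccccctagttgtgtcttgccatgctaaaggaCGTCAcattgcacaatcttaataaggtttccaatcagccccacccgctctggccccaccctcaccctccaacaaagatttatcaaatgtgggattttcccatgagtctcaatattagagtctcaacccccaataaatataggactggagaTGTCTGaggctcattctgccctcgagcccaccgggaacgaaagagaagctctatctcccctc
TNFAIP6, chr2:151357342-151357641, plus strand: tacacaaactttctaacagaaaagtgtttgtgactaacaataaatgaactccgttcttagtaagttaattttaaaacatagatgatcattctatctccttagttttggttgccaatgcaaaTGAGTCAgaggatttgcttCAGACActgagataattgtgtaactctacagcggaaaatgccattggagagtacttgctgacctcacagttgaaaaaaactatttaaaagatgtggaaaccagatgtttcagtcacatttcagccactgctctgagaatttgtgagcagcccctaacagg
An AP-1 site (TGACTCA or TGAGTCA, which are each other's reverse complement) was in 10 of the 88 windows (11.4%), in 3.44% of all windows and in 1.54% of the 65 windows of the genes held down by TGF-β. The 10 genes were AMIGO2, CXCL8, DNAH10OS, DNMBP, F3, GJA1, IL11, KLHL24, SERPINB8 and TNFAIP6. The other motifs, searched on both strands, were in shares of the 88 windows and of all windows of 14.8% and 8.18% for the EGR site GCGGGGGCG, 17% and 12.3% for CAGACA, 26.1% and 33.6% for TGACG, 4.55% and 3.14% for the full CRE TGACGTCA (which holds TGACG), and 1.14% and 0.162% for the SMAD palindrome GTCTAGAC. GGAATG, added after it was seen in the CCN2 window, was in 13.6% and 11%. For NF-κB only a single fixed spelling of the site was searched, which was in no window of the 88 and in 0.216% of all. Its other spellings were not searched and stay in lower case, so these shares do not say which windows lack an NF-κB site. These are matches of letters with no test, and no binding was measured.

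The 80 genes lowered by both at 2 h started from similar medians, a log2(FC) of −0.57 with eATP and −0.55 with TGF-β. At 6 h they stood at 0.10 and −0.76. With eATP 70 of the 80 were no longer called against controls, 4 were still called lower and 6 were called higher. With TGF-β 22 fell further from 2 to 6 h, 3 rose and 55 had no call. In all 80 the 4 libraries of eATP at 6 h were above the 4 at 2 h.

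FOS, the immediate early gene of the AP-1 subunit c-Fos, had the largest interaction of these once genes whose mean stayed under 1 FPKM in every treated group were set aside. It was at 24.1, 19.1, 19.8 and 21.8 FPKM in the controls. With eATP it was at 1.45, 1.03, 1.32 and 0.81 at 2 h and at 10.5, 11, 11.2 and 8.46 at 6 h. Under TGF-β the FPKM was 2.21, 2.94, 1.92 and 2.11 at 2 h and 2.31, 2.03, 1.73 and 2.42 at 6 h. All treated libraries were below all controls, and the return with eATP was partial (log2(FC) −1.02 against controls at 6 h, adjusted p = 0.0014). The interaction was −3.21 ± 0.26 (SE, adjusted p = 4.0e-06). Its promoter window is shown for the CRE core in capitals, which lies 64 bases before the start site.
FOS, chr14:75278578-75278877, plus strand: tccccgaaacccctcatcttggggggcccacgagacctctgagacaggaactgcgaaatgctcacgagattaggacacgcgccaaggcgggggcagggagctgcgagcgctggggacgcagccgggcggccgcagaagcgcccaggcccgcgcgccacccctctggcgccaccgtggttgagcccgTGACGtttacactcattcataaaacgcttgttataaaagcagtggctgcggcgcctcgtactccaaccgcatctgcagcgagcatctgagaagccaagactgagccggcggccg
TGACG was in 33.8% of the 65 windows of these genes and in 33.6% of all windows, and GGAATG in 15.4% and 11%.

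The 25 immediate early genes tested did not follow a single course, with 5 positive interactions (CCN1, FOSL1, JUN, KLF10 and SRF) and 3 negative (EGR1, FOS and JUNB). EGR1, a zinc finger factor gene, was lowered by both at 2 h but recovered with both. Its FPKM was 0.8 to 0.997 with eATP at 2 h and 9.28 to 13.2 at 6 h, and 3 to 7.58 with TGF-β at 2 h and 16.8 to 20 at 6 h, against 19.5 to 28.5 in the controls. The interaction was −1.44 ± 0.33 (SE, adjusted p = 0.018), with a lower start and a larger rise with eATP, although the level at 6 h was higher with TGF-β. Of the 21 MAP kinase feedback genes 5 were positive and 1 negative. DUSP5, the gene of a nuclear phosphatase of ERK, was at means of 74.1 and 16.2 FPKM with eATP and 8.24 and 6.61 with TGF-β, against 12.8 in the controls.

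RNF43 encodes a membrane ubiquitin ligase that removes Wnt receptors and is itself a Wnt target. It was at 8.73, 7.88, 5.55 and 9.57 FPKM in the controls. With eATP it was at 1.04, 0.761, 0.727 and 0.674 at 2 h and at 7.06, 6.98, 6.13 and 6.58 at 6 h, within the range of the controls. With TGF-β it was at 0.767, 1.31, 1.04 and 0.925 at 2 h and at 1.28, 1.22, 0.963 and 1.41 at 6 h, below every control library. The interaction was −2.73 ± 0.23 (SE, adjusted p = 5.5e-06). Of the 19 Wnt pathway genes tested 5 were negative (AXIN2, RNF43, SFRP1, TLE3 and WNT7B) and 1 positive (DKK1), with 7 and 1 by DESeq2 and 4 and 2 by limma. AXIN2, a feedback inhibitor of the pathway, had a mean of 2.27 FPKM in the controls. Both inducers lowered it at 2 h, to 0.687 with eATP and 0.669 with TGF-β. From there it rose with both, to 2.64 with eATP and 1.25 with TGF-β at 6 h. The TGF-β level at 6 h was still called lower than in the controls (log2(FC) −0.80). AXIN2 was thus among the genes lowered by both inducers, held down by TGF-β and recovering with eATP. Its call (adjusted p = 0.048) was lost without any of 12 single libraries (adjusted p 0.0040 to 0.095 over the 16), and so was that of TLE3 (adjusted p = 0.037, 0.0028 to 0.081 over the 16), which limma did not call either.

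**Figure D4:**
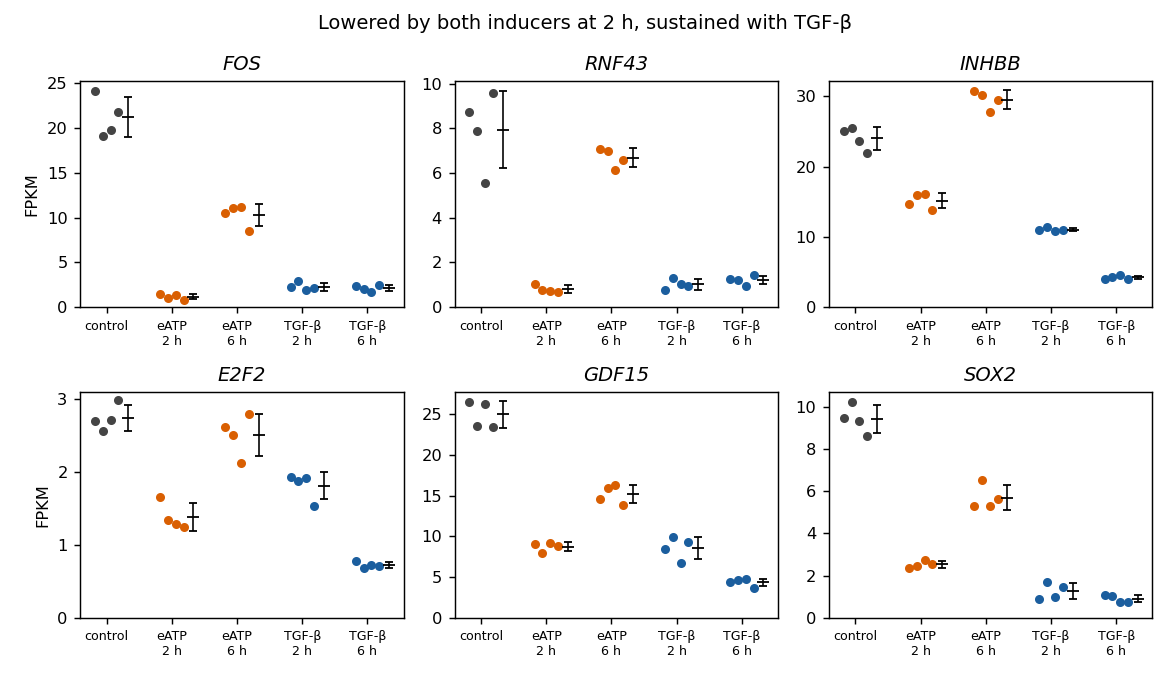
FPKM of 6 genes lowered by both inducers at 2 h, with 1 point for each library, 4 libraries a group, and the mean ± SD beside them. With eATP (orange) all 6 are higher at 6 h than at 2 h with no overlap, while with TGF-β (blue) INHBB, E2F2 and GDF15 are lower still at 6 h and FOS, RNF43 and SOX2 overlap between the times.

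INHBB, the gene of the activin B subunit, had the smallest adjusted p of the genes named here. It was at 25.1, 25.5, 23.7 and 21.9 FPKM in the controls, at 14.7, 15.9, 16 and 13.8 with eATP at 2 h and at 30.7, 30.2, 27.8 and 29.5 at 6 h. The TGF-β libraries had 10.9, 11.4, 10.8 and 10.9 at 2 h and 3.99, 4.34, 4.54 and 3.97 at 6 h. The eATP libraries thus crossed from below to above every control library, while the TGF-β libraries moved further below them (interaction −2.30 ± 0.10, SE, adjusted p = 1.3e-08). FST, whose product blocks activins, and INHBB thus had interactions of opposite sign. Of the 20 genes of BMP and activin ligands, antagonists, receptors and SMADs and of ID factors, 3 were positive (BMP2, BMP6 and FST) and 5 negative (GDF15, ID1, ID2, ID4 and INHBB). ID4, which encodes an inhibitor of basic helix-loop-helix factors, was at means of 0.813 and 2 FPKM with eATP and 2.12 and 0.679 with TGF-β, against 1.77 in the controls (interaction −2.89 ± 0.20, SE, adjusted p = 1.0e-06). GDF15, a stress-induced secreted factor, was at means of 8.73 and 15.2 with eATP and 8.6 and 4.34 with TGF-β, against 25 in the controls.

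The genes of the G1/S transition and of DNA replication had 10 negative and 0 positive interactions of 20 tested, with a median of −0.58 against −0.01 over all genes. At an unadjusted p under 0.05 they were 15 and 0, with DESeq2 12 and 0, and with limma 11 and 0. The 10 called by edgeR were CCND1, CCNE1, CDC6, E2F1, E2F2, E2F8, MCM2, MCM3, MCM4 and MCM6, of which E2F2, MCM2, MCM4 and MCM6 were among the 80. The call of E2F8 (adjusted p = 0.038) was lost with limma and without any of 11 single libraries (adjusted p 0.0023 to 0.084 over the 16). The replication genes ORC1, CDC7, GINS1, POLE2 and CHAF1A, which were not in the list and were picked out after the 80 were seen, were there too. E2F2, the gene of an activating E2F factor, was at 1.66, 1.34, 1.29 and 1.25 FPKM with eATP at 2 h and at 2.61, 2.51, 2.12 and 2.79 at 6 h. With TGF-β it was at 1.93, 1.87, 1.92 and 1.53 at 2 h and at 0.778, 0.681, 0.724 and 0.708 at 6 h, against 2.56 to 2.98 in the controls. At 6 h the libraries of the inducers were far apart, and those of eATP overlapped the controls (interaction −2.13 ± 0.17, SE, adjusted p = 3.7e-06). CDC6, which loads the replicative helicase, had means of 18 and 26.6 FPKM with eATP and 20.8 and 13.3 with TGF-β, against 23.2 in the controls. The 20 genes of G2/M and mitosis had no call with edgeR or limma, 1 negative with DESeq2, and 1 in each direction at unadjusted p under 0.05, with a median of −0.06.

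SOX2 and FOXA2, which encode transcription factors of the foregut and airway, were also among the 80. SOX2 was at means of 2.52 and 5.69 FPKM with eATP and 1.26 and 0.895 with TGF-β, against 9.4 in the controls, and FOXA2 at 3.83 and 6.66 with eATP and 4.11 and 3.71 with TGF-β, against 6.84. Of the 18 hepatic and endoderm factor genes tested, 7 were negative, with CPS1, FGA, FGB, FGG, FOXA2 and SOX2 among them, and 1 positive (BAAT), and without TGF-β 2 h replicate 1 they were 11 and 1. The fibrinogen gene FGA was at 42.5 and 27.8 FPKM with eATP and 27.9 and 9.45 with TGF-β, falling with both.

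The 4 genes raised by both and sustained by eATP were IRF2BP2, LXN, AXL and SRSF6, and their changes were small. IRF2BP2 encodes a transcriptional corepressor, and it was at 28.8, 26.7, 25.7 and 29 FPKM with eATP at 2 h and at 27.8, 28.3, 27.5 and 26 at 6 h. In cells given TGF-β it was at 26.2, 26.4, 25.9 and 28 at 2 h and at 14, 14.9, 14.9 and 14 at 6 h, against 22.9 to 25.1 in the controls. TGF-β thus took it from above to below every control library (interaction −0.82 ± 0.09, SE, adjusted p = 3.8e-05). LXN, the gene of a carboxypeptidase inhibitor, was at means of 50.8 and 44.5 FPKM with eATP and 43.8 and 21.9 with TGF-β, against 36.5 in the controls. The receptor tyrosine kinase gene AXL was at 28.9, 31.2, 29.6 and 28.6 FPKM with eATP at 2 h and at 34.9, 31, 32.7 and 33.1 at 6 h. With TGF-β it was at 23.4, 22.6, 23.7 and 24.6 at 2 h and at 19.1, 19.8, 18.5 and 18.8 at 6 h, against 19.9 to 21.4 in the controls (interaction −0.41 ± 0.08, SE, adjusted p = 0.0078). The splicing factor gene SRSF6 (interaction −0.33 ± 0.08, SE, adjusted p = 0.026) lost its call without TGF-β 2 h replicate 3 or eATP 6 h replicate 1.

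A further set of genes with a positive interaction rose from 2 to 6 h with TGF-β but did not meet the conditions of the group of 117, matrix genes among them. Of 24 genes of collagens, laminins and collagen processing 9 were positive and 0 negative (with DESeq2 and limma 9 and 0, at unadjusted p under 0.05 11 and 1, and without TGF-β 2 h replicate 1 9 and 2). None of the 9 was in the group of 117. COL1A1, a fibrillar collagen gene, was at 5.73, 6.49, 5.9 and 5.83 FPKM with TGF-β at 2 h and at 16.3, 14.7, 16.4 and 17.8 at 6 h. With eATP it was at 1.36, 1.31, 1.18 and 1.02 at 2 h and at 0.566, 0.662, 0.7 and 0.599 at 6 h, below the 0.915 to 1.23 of the controls (interaction 2.43 ± 0.14, SE, adjusted p = 2.1e-07). COL1A1 thus rose with TGF-β and fell with eATP, with no overlap between the times for either, and both changes enter its interaction.

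Of the 18 matrix protease and inhibitor genes 8 were positive and 0 negative with edgeR and limma (9 and 1 with DESeq2, 10 and 2 at unadjusted p under 0.05). For the metalloproteinases MMP1, MMP3 and MMP10 the eATP libraries overlapped between the times. MMP1, the interstitial collagenase gene, was at 1.74, 2.06, 2.05 and 2.28 FPKM with eATP at 2 h and at 2.06, 1.94, 1.39 and 2 at 6 h. Under TGF-β the FPKM was 0.529, 0.351, 0.318 and 0.236 at 2 h and 2.25, 2.71, 2.29 and 2.67 at 6 h, against 0.0959 to 0.243 in the controls. The interaction of 2.96 ± 0.30 (SE, adjusted p = 2.8e-05) thus came with a rise with TGF-β (log2(FC) 2.82) and no call with eATP (−0.14). MMP10 was at means of 2.12 and 2.14 FPKM with eATP and 1.25 and 3.33 with TGF-β, against 0.586 in the controls. MMP3 was at 0.706 and 0.776 with eATP and 0.275 and 2.49 with TGF-β. These 3 genes were in none of the groups of sustained genes. Of 25 integrin and focal adhesion genes 8 were positive (13 with a correction for transcript length), with NEDD9 in the group of 117, and of 22 mesenchymal genes 8 were positive, with CCN2, PLAU and THBS1 in that group. In both lists 0 were negative by edgeR, DESeq2 and limma and at unadjusted p under 0.05.

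Among the negative interactions outside these groups were secreted factors that rose from 2 to 6 h with eATP and fell with TGF-β. FGFBP1, the gene of a protein that carries fibroblast growth factors, was at 27.9, 29, 28.4 and 32.7 FPKM with eATP at 2 h and at 78, 70.2, 89.8 and 70 at 6 h. With TGF-β it was at 16.3, 14.7, 12.8 and 15.4 at 2 h and at 4.53, 4.72, 4.26 and 3.16 at 6 h, against 19.8 to 24.7 in the controls. No libraries of the inducers overlapped at either time (interaction −3.16 ± 0.19, SE, adjusted p = 3.3e-07). EDN2, an endothelin gene, was at means of 1.16 and 4.39 FPKM with eATP and 0.286 and 0.0585 with TGF-β, against 1.62 in the controls (interaction −4.10 ± 0.66, SE, adjusted p = 0.0013). Its libraries of TGF-β at 6 h held 12, 8, 0 and 11 counts, near the floor, so the size of its interaction is uncertain. Under the other settings it was −4.15 to −3.18.

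Of 15 Notch pathway genes 6 were negative (HES1, HEY1, LFNG, NOTCH1, NOTCH3 and NRARP) and 0 positive with edgeR, with 9 and 3 at unadjusted p under 0.05, 7 and 0 with DESeq2 and 6 and 0 with limma. Correction for transcript length gave 6 and 3. LFNG, which encodes a glycosyltransferase that modifies Notch receptors, was at 9.71, 6.4, 7.64 and 9.2 FPKM with TGF-β at 2 h and at 2.85, 3.63, 3.69 and 3.59 at 6 h. With eATP it was at 0.713, 0.734, 0.688 and 0.571 at 2 h and at 1.46, 1.5, 1.14 and 0.955 at 6 h, against 0.843 to 1.27 in the controls. Against controls the log2(FC) at 2 h was 3.09 with TGF-β (called) and −0.52 with eATP (adjusted p = 0.075, not called). NOTCH1 was at means of 0.42 and 1.39 FPKM with eATP and 1.35 and 1.3 with TGF-β.

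The 22 genes of the TGF-β SMAD pathway, which were ligands and their binding proteins, receptors, SMADs, feedback inhibitors and the target TGFBI, had 5 positive (LDLRAD4, LTBP3, PMEPA1, SMURF2 and TGFBI) and 3 negative interactions (BAMBI, SKI and SMAD6). BAMBI, a decoy receptor gene, was at means of 13 and 19.9 FPKM with eATP and 61.8 and 35.9 with TGF-β, against 21.9 in the controls (interaction −1.35 ± 0.11, SE, adjusted p = 2.7e-06). TGFBI, a secreted matrix protein gene, was at 112 and 112 with eATP and 182 and 357 with TGF-β. The inhibitory SMAD gene SMAD7 rose from 2 to 6 h with both, from 1.9 to 3.05 FPKM with eATP and from 7.21 to 10 with TGF-β. The controls had 3.07 to 3.88 FPKM. With eATP SMAD7 was below every control library at 2 h and overlapped them at 6 h, and with TGF-β it was above them at both times. Its interaction of −0.15 ± 0.15 (SE) was not called (adjusted p = 0.73). Of the 14 EMT transcription factors 1 was positive (ETS1) and 1 negative (ELF3). SNAI1 was at means of 0.557 and 0.678 FPKM with eATP and 3.46 and 4.2 with TGF-β, and its interaction of 0.04 ± 0.33 (SE) was not called (adjusted p = 0.98). Of the 24 epithelial junction genes 2 were positive and 2 negative.

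**Figure D5:**
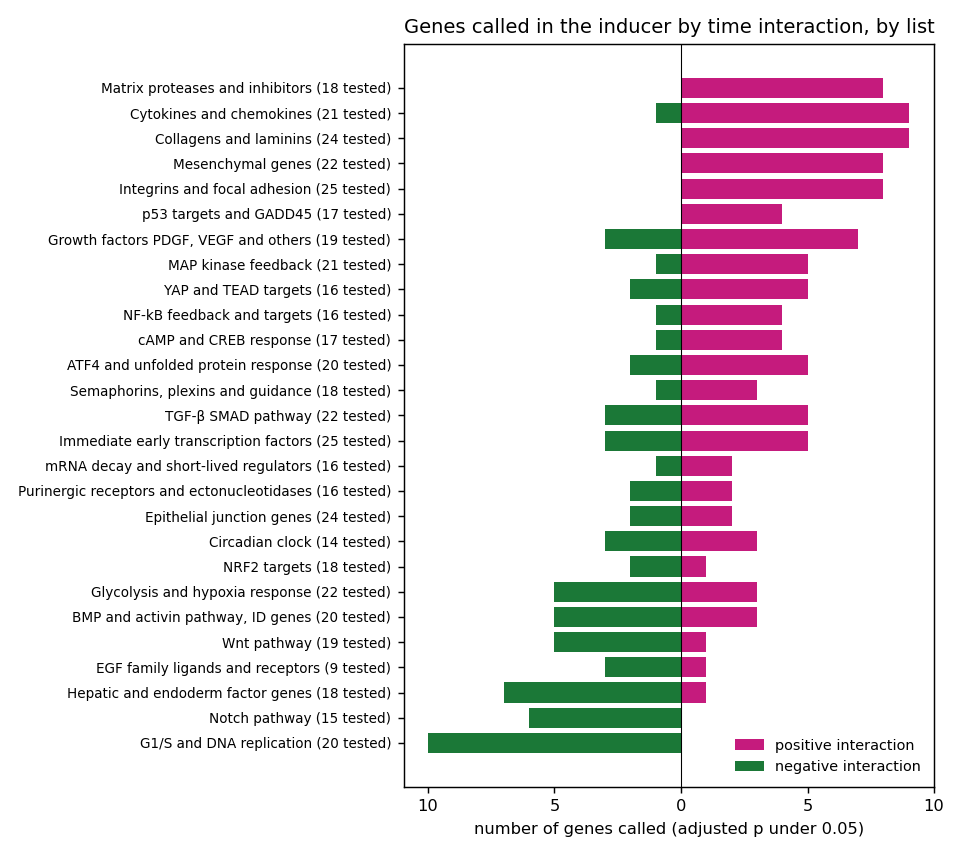
Number of genes called with a positive (right) or a negative (left) interaction in each list with more than 2 calls, with the number tested in brackets. Collagens and laminins, matrix proteases, mesenchymal genes, and integrins and focal adhesion have calls at the right alone (9, 8, 8 and 8), as do 4 genes of the p53 list, and the Notch and the G1/S and DNA replication lists have calls at the left alone (6 and 10).

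Of the 11 genes that the study names as raised by both inducers at both times, 4 had a positive interaction (BMP6, IL1A, MMP10 and STC1) and 0 a negative one with edgeR, DESeq2 and limma (5 and 1 at unadjusted p under 0.05). The call of IL1A (adjusted p = 0.039) was lost without any of 14 single libraries (adjusted p 0.0032 to 0.086 over the 16), and without TGF-β 2 h replicate 1 the list had 3 positive. Of the 7 that it names as lowered, FOS was negative and 0 were positive (2 and 0 at unadjusted p under 0.05 and with DESeq2, 1 and 0 with limma). Of its 23 EMT genes 9 were positive and 1, NOTCH3, was negative (9 and 2 with DESeq2, 10 and 0 with limma, 10 and 4 at unadjusted p under 0.05). NOTCH3 (adjusted p = 0.030) lost its call without any of 7 single libraries (adjusted p 0.0055 to 0.066 over the 16). VIM, the gene of the mesenchymal filament vimentin, was not called (interaction 0.47 ± 0.16, SE, adjusted p = 0.12). The study chose these genes on the same libraries, so their counts are no independent evidence. The 17 interferon-stimulated genes had no call with edgeR and 2 negative each with DESeq2, limma and at unadjusted p under 0.05, and the 9 mitochondrial mRNAs had none by any of these.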

How the data were processed

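RNA of A549 cells was sequenced from poly(A) libraries (TruSeq stranded). The authors deposited, per gene and library, whole-number read counts and FPKM values, which are scaled to transcript length and library size. The submitters' notes name HISAT2, StringTie and edgeR, and neither genome build nor annotation is given in the sources used here. Replicates numbered 1 to 4 in the labels were used, all 4 per group, although the study's text gives fewer.

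Counts were scaled by TMM and tested with edgeR 4.0.16 (R 4.3.3) in 1 model of 4 group means (16 libraries, 12 residual degrees of freedom). Comparisons with controls used all 20 libraries (15 residual degrees of freedom). P-values were two-sided, Benjamini-Hochberg adjusted over the 19523 genes tested, and SE is from the same test. Groups are given as FPKM by library or as their mean. DESeq2 1.42.0 and limma 3.58.1 (on log2(FPKM + 0.1)) were alternatives. Counting error is small at this depth and intervals for it are not given. The members and the 37 gene lists (609 genes tested) were chosen with earlier results of these data known. The lists were used for counts only.

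Named genes were the 10 largest interactions in each direction (1 FPKM or more on average in a treated group, 6 h apart from 2 h in all libraries for at least 1 inducer), the 8 largest of each group of sustained genes, up to 4 called members of each list (the 2 highest where none was called), and the study's own genes. The text leaves out some of these. Promoters are from RefSeq (GRCh38.p14). The code was tested on simulated counts with known interactions, which were given only to genes with higher counts. Of the genes left unchanged, 9 were called. Of 100 genes with an interaction of 1 on the log2 scale, 35 were called with the right sign. Of 100 genes with an interaction of 2, 79 were. A gene without a call may thus still have an interaction of this size.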

Additional observations from a re-analysis of the deposited data

Results flagged for a closer look

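The change from 2 to 6 h differed between the inducers, by the test of the difference itself, for 543 genes with a positive and 494 genes with a negative interaction. These are the genes described above.

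Among 54 genes examined by library and 5 groups of 4 libraries each, 16 of 270 groups (5.93%) held a library that lay too far from the nearest of the other 3 by Dixon's test at 95%. Chance flags about 1 in 20. Of the 16, 4 were in the controls, 2 in eATP 2 h, 6 in TGF-β 2 h, 3 in eATP 6 h and 1 in TGF-β 6 h, and 2 were TGF-β 2 h replicate 1. In that library RHOV, the gene of an atypical small GTPase, had 5.54 FPKM, and the remaining libraries of that group 3.31 to 3.5, and LCE3D, a late cornified envelope gene, was at 1.54 against 0.473 to 0.608. In TGF-β 2 h replicate 4 EGR1 was at 7.58 FPKM against 3 to 3.49, SNAI1 at 4.53 against 3.05 to 3.17, and E2F2 at 1.53 against 1.87 to 1.93. In TGF-β 2 h replicate 2 MMP10 was at 0.971 FPKM against 1.33 to 1.38. In the controls MMP10 was at 0.786 FPKM in replicate 4 against 0.507 to 0.529, PDGFB at 1.51 in replicate 4 against 1.85 to 1.9, FRMD3 at 4.94 in replicate 3 against 6.29 to 6.51, and AXIN2 at 1.76 in replicate 3 against 2.39 to 2.51. In eATP 2 h AXIN2 was at 0.856 FPKM in replicate 1 against 0.617 to 0.646, and NT5E at 25.3 in replicate 2 against 27.5 to 27.8. In eATP 6 h THBS1 was at 10.6 FPKM in replicate 3 against 12.4 to 12.8, TGFBI at 138 in replicate 2 against 106 or less, and FGA at 29.9 in replicate 2 against 26.9 to 27.4. In TGF-β 6 h LFNG was at 2.85 FPKM in replicate 1 against 3.59 to 3.69.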

How the results depend on the processing

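The groups are named here as raised and held by TGF-β (117 genes), raised and held by eATP (4), lowered and held by TGF-β (80) and lowered and held by eATP (0). DESeq2 called 1622 genes, 825 of them negative, with 9, 129 and 2 in the last 3 groups. An adjusted p under 0.01 left 551 calls, 308 positive and 243 negative. Raised and held by eATP were 2 without a filter and 2 with the replicate block. Lowered and held by eATP were 1 with a filter of 1 FPKM, 1 with upper quartile scaling, 2 with a correction for transcript length and 1 with this correction and the block. A library left out in turn gave 813 to 1738 calls, 414 to 791 of them positive and 387 to 947 negative, with 98 to 159, 2 to 10, 59 to 167 and 0 to 2 genes in the groups. The highest count of calls was without TGF-β 2 h replicate 1, and the cause was not tested. Of the 135 called genes among the 169 that the rule named, 111 were called under every alternative, and none reversed.

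The replicate number did not pair the libraries: 1 of 24 same-numbered pairs correlated above 0.1 (−0.193 to 0.148), and a library correlated best with its own number in 13 of 48 cases. With the replicate block 793 genes were called, 775 of them shared. The calls of AC021087 and AC034223 were lost without 11 and 13 single libraries. AC021087 had 1 to 159 counts in the libraries of eATP 2 h and 155 to 1320 in those of TGF-β 2 h, and AC034223 had 71 or fewer in every treated library, and what limits them was not tested. Differences between replicates exceed sampling noise.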

Other observations

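The remaining lists had calls in both directions or few calls by edgeR, of the genes tested. Of 16 YAP and TEAD targets 5 were positive and 2 negative, of 19 growth factor genes 7 and 3, of 17 cAMP and CREB response genes 4 and 1, of 18 guidance genes 3 and 1, and of 17 p53 targets 4 and 0 (4 and 0 with DESeq2 and limma, 5 and 0 at unadjusted p under 0.05). In the other direction, 1 was positive and 3 were negative of 9 EGF family ligand and receptor genes (NRG1 against AREG, TGFA and the receptor ERBB3), 3 and 5 of 22 genes of glycolysis and the hypoxia response, and 0 and 2 of 20 of cholesterol and fatty acid synthesis (0 and 2 with DESeq2, limma and at unadjusted p under 0.05). Of 20 ATF4 and unfolded protein response genes 5 and 2 were called, of 14 clock genes 3 and 3, of 18 NRF2 targets 1 and 2, of 16 mRNA decay genes 2 and 1, and of 15 heat shock and metallothionein genes 0 and 1 (0 and 1 with DESeq2 and limma, 2 and 2 at unadjusted p under 0.05). Without TGF-β 2 h replicate 1 the YAP and TEAD list had 5 and 4, the EGF family list 2 and 5, the cAMP list 6 and 2, the NRF2 list 2 and 3, the cholesterol list 1 and 3 and the heat shock list 2 and 2. The edgeR call of TGFA (adjusted p = 0.037) was lost without any of 11 single libraries. The 2 negative NRF2 targets, AKR1B10 (adjusted p = 0.044) and SRXN1 (adjusted p = 0.039), lost theirs without any of 10 and 9.

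Single genes in these lists moved apart. The EGF receptor ligand gene AREG was at means of 182 and 147 FPKM with eATP and 31.1 and 15.3 with TGF-β, against 75.2 in the controls. CCN1, a YAP target, was at 67.6 and 33.1 with eATP and 40.6 and 85.3 with TGF-β, against 32.3. CHAC1, a glutathione-degrading enzyme gene induced by ATF4, was at 1.05 and 0.815 with eATP and 0.888 and 3.05 with TGF-β, against 1.19. CLDN1, a tight junction gene, was at 83.7 and 44.1 with eATP and 35.1 and 37.5 with TGF-β, against 50.2.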
